A study of Arabidopsis thaliana with 8 samples.

Results

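The alkenal reductase-like genes are 10 Arabidopsis thaliana loci that encode the alkenal reductase AER and its closest relatives, annotated as zinc-binding dehydrogenase family proteins. They were taken by locus identifier from a table of 36796 genes, and all 10 were found in it. The gene AT5G37940 had been picked because its counts were higher in the mutant hta9 hta11 than in the wild type, and the 9 others were added as its paralogs, by annotation. The fold change of AT5G37940 is therefore given as a description, without a test.

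Poly(A) RNA was sequenced from whole Col-0 rosettes in 8 libraries, 4 of the double mutant hta9 hta11 and 4 of the wild type. The plants were 17 days old and not bolted, were grown under 16 h of light and 8 h of dark at 22 °C, and were harvested 6 h after lights on. Each library came from a pool of 5 plants. The protocol speaks of 3 biological replicates per genotype while 4 libraries are labelled for each, so whether all 4 are separate biological replicates is not settled, and each SD, n and p-value treats them as such. HTA9 and HTA11 encode forms of the histone variant H2A.Z, which replaces H2A in some nucleosomes, and the comparison asks which transcript levels differ in the mutant. The kind of mutation in each gene is not given in the sources used here.

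Alkenal reductases use NADPH to saturate the carbon double bond of reactive carbonyls, the aldehydes and ketones that arise when membrane lipids are oxidised. This removes the group that would otherwise attack proteins and DNA. In Arabidopsis AER is the characterised enzyme of the family, and the roles of its 9 relatives are less well known. The proteins belong to the medium-chain dehydrogenases and bind the cofactor through a glycine-rich stretch.

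The members lie at 4 places in the genome (TAIR10.1). The cluster of AT5G37940 holds 3 genes over 36.4 kb of the plus strand of chromosome 5, namely AT5G37940 (15107124 to 15108988), AT5G37980 (15131289 to 15133085) and AT5G38000 (15141650 to 15143542). The cluster of AER holds 5 genes over 13.5 kb of the minus strand of the same chromosome, from AT5G16960 (5573700 to 5575910) through AER (AT5G16970, 5575973 to 5578086), AT5G16980 (5578846 to 5581311) and AT5G16990 (5581524 to 5584466) to AT5G17000 (5584708 to 5587237). Gaps of 62 to 759 bases separate these 5 neighbours. AT3G03080 (chromosome 3, 698325 to 700332) and AT1G26320 (chromosome 1, 9105038 to 9107231) stand alone. Each member has 5 coding exons, and the annotated proteins are 343 to 353 residues long but for that of AT5G16980, which has 305.

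The coding stretch around the glycine-rich motif shows how alike the members are and where reads can tell them apart. It lies in coding exon 3 of every member, at chr5:15107961-15108011 in AT5G37940. The 51 bases are printed as RefSeq TAIR10.1 gives them on the coding strand, and capitals mark bases that differ from AT5G37940.
AT5G37940: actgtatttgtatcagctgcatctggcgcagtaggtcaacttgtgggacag
AT5G38000: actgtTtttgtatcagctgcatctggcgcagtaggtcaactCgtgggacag
AT5G37980: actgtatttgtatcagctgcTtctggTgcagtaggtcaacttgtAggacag
AT5G16960: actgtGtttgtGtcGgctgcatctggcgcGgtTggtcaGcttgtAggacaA
AT5G16970: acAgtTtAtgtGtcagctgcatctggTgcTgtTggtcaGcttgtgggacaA
AT5G16980: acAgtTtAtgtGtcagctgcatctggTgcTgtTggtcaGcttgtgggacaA
AT5G17000: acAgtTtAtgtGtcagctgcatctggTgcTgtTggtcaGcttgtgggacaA
AT5G16990: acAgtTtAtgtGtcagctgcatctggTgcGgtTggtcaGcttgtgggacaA
AT3G03080: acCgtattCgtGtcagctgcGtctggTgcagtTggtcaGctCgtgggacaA
AT1G26320: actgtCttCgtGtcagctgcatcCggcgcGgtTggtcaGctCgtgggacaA
AT5G38000 differed from AT5G37940 at 2 of these bases and AT5G37980 at 3, against 8 or 9 in the other 7 members. AER, AT5G16980 and AT5G17000 were identical over the stretch.

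Over whole proteins the closest relative of AT5G37940 was AT5G38000, with 94.1% identical aligned residues and 96.0% identical coding bases. AT5G37980 followed at 92.4% of residues, and members of the AER cluster lay between 70.2% and 75.4%. Within the AER cluster the highest identity was 91.8%, between AER and AT5G16990. The transcripts of AT5G37940 and AT5G38000 share an exact run of 237 bases, and 29.2% of all windows of 50 bases in AT5G37940 also occur in another member, falling to 14.6% for windows of 100 bases. In AT5G38000 these shares were 25.6% and 13.6%. In AT5G16980 they were 5.28% and 0. How reads with several matches were counted is not given in the sources used here. Part of the counts of AT5G37940 and AT5G38000 could thus belong to either gene. The same holds, over shorter stretches, for AT5G16980 and the more abundant AER.

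**Figure D1:**
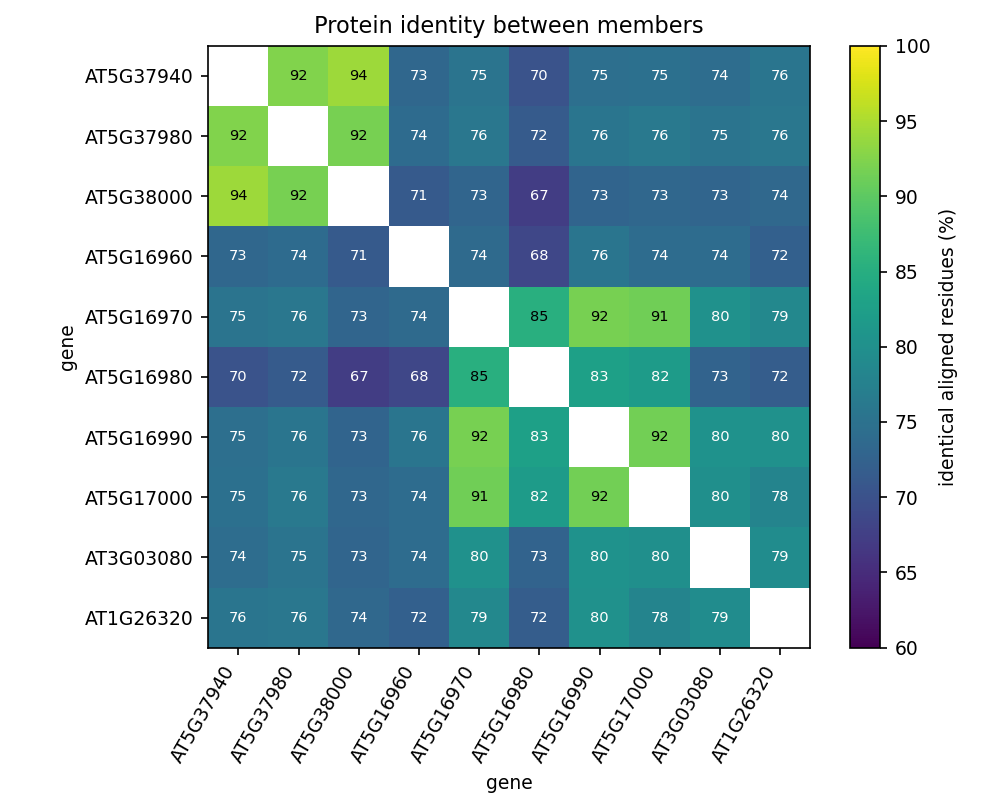
Identical residues as a percent of aligned residues for each pair of the 10 member proteins, translated from the RefSeq coding sequences. The 3 genes of the AT5G37940 cluster form a block at 91.8% to 94.1%, and the 5 genes of the AER cluster range from 68.5% to 91.8%.

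Library totals ran from 31611735 to 47467130 counts. The targeted genes were lower in every mutant library than in every wild-type library, but unevenly. HTA9 had 60.6, 14.8, 33.4 and 16.5 CPM (counts scaled to library size) in hta9 hta11 libraries 1 to 4, against 86.0 to 103.9 CPM in the wild type. HTA11 had 26.0, 2.98, 14.1 and 3.60 CPM in the same mutant libraries, against 38.5 to 54.1 CPM in the wild type. The log2 fold change was -1.60 (SE 0.38) for HTA9, which passed edgeR's test (adjusted p = 0.0457, up to 0.123 over the alternatives), and -1.94 (SE 0.56) for HTA11, which did not (adjusted p = 0.0924). Mutant libraries 1 and 3 thus held more of both transcripts than libraries 2 and 4. The 4 rosette leaf markers, Rubisco and light-harvesting genes among them, summed to 39600 to 46690 CPM in hta9 hta11 and 43520 to 52870 CPM in the wild type. Root and seed markers summed to 0.0269 to 0.124 and 0.348 to 1.12 CPM in hta9 hta11, against 0 to 0.0568 and 0.114 to 0.566 CPM in the wild type. All were too low to test. Counts over the mutant and wild-type libraries were 86 and 33 for SESA1, 32 and 11 for CRA1, and 4 and 1 for CRU3 of seeds. Of the root markers, SHV2 had 10 and 3 and EXPA7 had 1 and 0. LRX1 of roots and CRU2 of seeds had 0 counts throughout.

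In the mutant, AT5G37940 was about 7-fold as abundant as in the wild type, and a second member, AT5G16980, rose about 2.5-fold. AER itself, the most abundant member, was at nearly the same level in both genotypes. Of the 8 members that passed the filter on low counts, 2 rose and 0 fell, or 3 called in all with DESeq2, where AT5G16990 fell. Over all 20214 genes tested, 3.74% were called, 2.49% higher and 1.25% lower, at an adjusted p below 0.05 in edgeR's quasi-likelihood test. AT5G37940, 1 of the 2, was chosen from this same comparison, so nothing is read from the count.

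AT5G37940 had 1.88, 1.69, 2.01 and 1.64 CPM in hta9 hta11 libraries 1 to 4, against 0.284, 0.290, 0.269 and 0.224 CPM in wild-type libraries 1 to 4. The groups lay far apart, which the choice of this gene favoured. The coefficient of variation was 9.56% in the mutant and 11.2% in the wild type. Neither exceeds the counting error at the counts given below, so a tight level is not read from them. The means were 1.81 ± 0.173 and 0.267 ± 0.0298 CPM (SD, n = 4 each), a log2 fold change of 2.73 (SE 0.19). The counts behind these values were 61 to 89 per mutant library and 7 to 12 per wild-type library, so the gene was nearly silent in the wild type. The count filter works on CPM before TMM scaling, unlike the values above, and on that scale the gene reached its level of 0.266 in 4 mutant libraries and 2 wild-type libraries, so it passed through the group in which it was high.

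Among the mutant libraries, 1 and 3, with 60.6 and 33.4 CPM of HTA9, had 1.88 and 2.01 CPM of AT5G37940, and libraries 2 and 4, with 14.8 and 16.5 CPM of HTA9, had 1.69 and 1.64 CPM. At 61 to 89 counts these gaps are about the size of the counting error, and no order is read from them. Without libraries 1 and 3 the log2 fold change was 2.62.

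**Figure D2:**
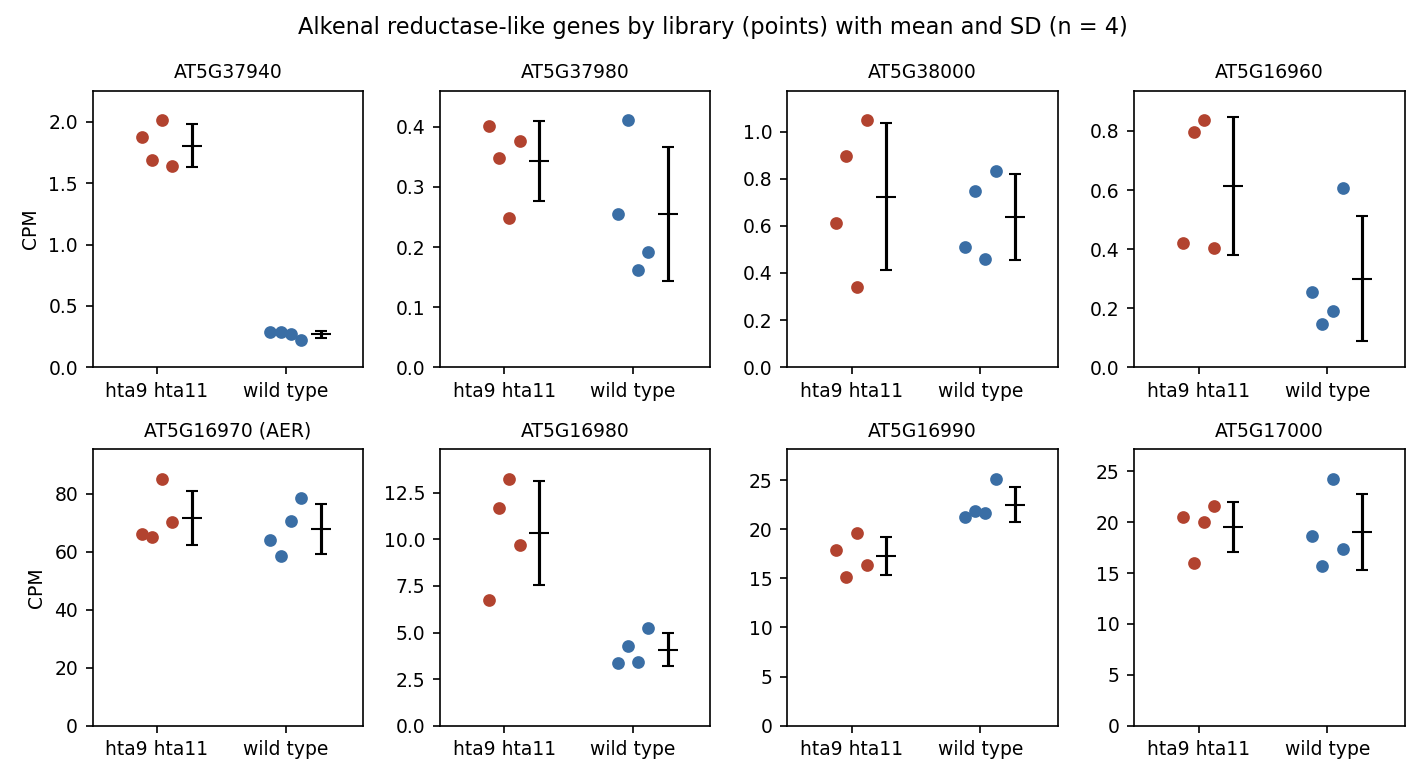
CPM of the 8 tested members in each hta9 hta11 library (red, left) and each wild-type library (blue, right), with the mean and SD of 4 libraries in black. The vertical axes start at 0 and differ between genes. In AT5G37940 all mutant libraries lie at or above 1.64 CPM and all wild-type libraries at or below 0.290 CPM, and in AT5G16980 and AT5G16990 the groups are also apart.

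The near-identical paralogs beside AT5G37940 stayed low in both genotypes. AT5G38000 had 0.612, 0.895, 0.341 and 1.05 CPM in hta9 hta11 and 0.511, 0.750, 0.458 and 0.833 CPM in the wild type. The ranges overlapped, and its log2 fold change of 0.19 (SE 0.34) did not pass in edgeR's test (adjusted p = 0.819). Without hta9 hta11 library 4 the value was -0.03. AT5G37980 had 0.248 to 0.401 CPM in the mutant and 0.162 to 0.411 CPM in the wild type, and its log2 fold change was 0.42, with an SE of 0.34 and an adjusted p of 0.591. The 3 genes together had 2.87 ± 0.195 CPM in hta9 hta11 and 1.16 ± 0.244 CPM in the wild type (SD, n = 4), and by FPKM, which scales CPM by exon length, AT5G37940 made up 62.6% ± 10.5 of the cluster in hta9 hta11 and 23.3% ± 5.71 in the wild type. AT5G38000 was the most abundant of the 3 in the wild type by mean FPKM and AT5G37940 in the mutant.

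The DNA before the gene starts differs between AT5G37940 and AT5G38000 although their coding sequences are 96.0% identical, which is why both windows are shown. The 250 bases before each annotated start are chr5:15106874-15107123 and chr5:15141400-15141649 of TAIR10.1, plus strand, in which capitals mark TATAAA wherever it was found.
AT5G37940: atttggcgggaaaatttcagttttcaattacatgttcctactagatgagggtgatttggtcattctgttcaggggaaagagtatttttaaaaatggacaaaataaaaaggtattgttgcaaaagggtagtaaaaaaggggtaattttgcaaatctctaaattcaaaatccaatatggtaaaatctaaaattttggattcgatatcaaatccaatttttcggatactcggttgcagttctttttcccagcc
AT5G38000: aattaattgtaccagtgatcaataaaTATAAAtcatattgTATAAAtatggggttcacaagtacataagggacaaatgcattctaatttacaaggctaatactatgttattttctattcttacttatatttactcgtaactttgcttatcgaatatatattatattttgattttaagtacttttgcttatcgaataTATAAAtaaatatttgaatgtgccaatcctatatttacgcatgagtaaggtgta
Aligned end to end, the windows were identical at 149 of 213 aligned bases. With gaps left out this is 70.0%, within the 58.4% to 77.1% found over all 45 pairs of members. As a share of the whole 250 bases it is 59.6%, within 52.8% to 64.0% over the same pairs. The 77.1% was found between AT5G17000 and AT3G03080, which lie on different chromosomes. Windows of unrelated genes were not aligned, so no shared origin of the windows is read from these shares. Of 5 motifs searched on both strands, the window of AT5G37940 held 0. TATAAA was present 3 times in the window of AT5G38000 and occurred in the windows of 47.3% of 27443 protein-coding genes, and in those of 3 members. CACGTG occurred in 6.5% of all windows and 0 members, AAACCCTA in 4.5% and 0 members, TGACG in 18.6% and 4 members, and GAGAGA in 20.6% and 2 members.

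In the AER cluster a single gene, AT5G16980, passed the test. It had 6.76, 11.7, 13.3 and 9.71 CPM in hta9 hta11 libraries 1 to 4, against 3.35, 4.28, 3.42 and 5.25 CPM in wild-type libraries 1 to 4. Every mutant library lay above every wild-type library, and the lowest mutant value was that of library 1. The log2 fold change was 1.34 (SE 0.22, adjusted p = 0.0105 in edgeR's quasi-likelihood test), and over all alternatives the value ran from 1.20 to 1.50 with an adjusted p of at most 0.0379. Its counts were 320 to 470 per mutant library and 118 to 177 per wild-type library. AT5G16980 encodes the shortest protein of the family, and 3 transcripts are annotated for it, which counts per gene do not separate.

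AER had 66.1, 65.0, 85.3 and 70.3 CPM in hta9 hta11 and 64.3, 58.5, 70.8 and 78.5 CPM in the wild type. The ranges overlapped, and the log2 fold change of 0.08 (SE 0.11, adjusted p = 0.786) was below 0 without mutant library 3, at -0.02. AT5G17000 had 16.0 to 21.6 CPM in the mutant and 15.7 to 24.3 CPM in the wild type, and its log2 fold change of 0.04 (SE 0.14) did not pass (adjusted p = 0.919). Its sign also depended on single libraries.

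AT5G16990 had 17.9, 15.1, 19.6 and 16.4 CPM in hta9 hta11, against 21.3, 21.9, 21.7 and 25.1 CPM in the wild type. The groups did not overlap. The same held for AT5G16980 and for AT5G37940, both higher in the mutant, but AT5G37940 was chosen for this difference. Over all genes tested the groups did not overlap in 11.3%, or in 6.23% with the mutant higher. Nothing is read from the count of members. For AT5G16990 the log2 fold change of -0.38 (SE 0.10) did not pass in edgeR's test (adjusted p = 0.0583). It passed in DESeq2 (adjusted p = 0.00925). In edgeR it also passed without mutant library 3 (adjusted p = 0.0454) and without mutant libraries 1 and 3 (adjusted p = 0.0334). Over the alternatives the adjusted p ran from 0.00925 to 0.185.

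AT5G16960, at the end of the cluster, had 0.422, 0.795, 0.837 and 0.404 CPM in hta9 hta11 and 0.255, 0.145, 0.189 and 0.608 CPM in the wild type. The highest wild-type library, number 4, lay above 2 mutant libraries, and the log2 fold change of 1.06 (SE 0.45) did not pass (adjusted p = 0.248). The gene shares 208 bases with AT5G02635, a long non-coding RNA on the other strand, whose counts summed to 2 over all 8 libraries.

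**Figure D3:**
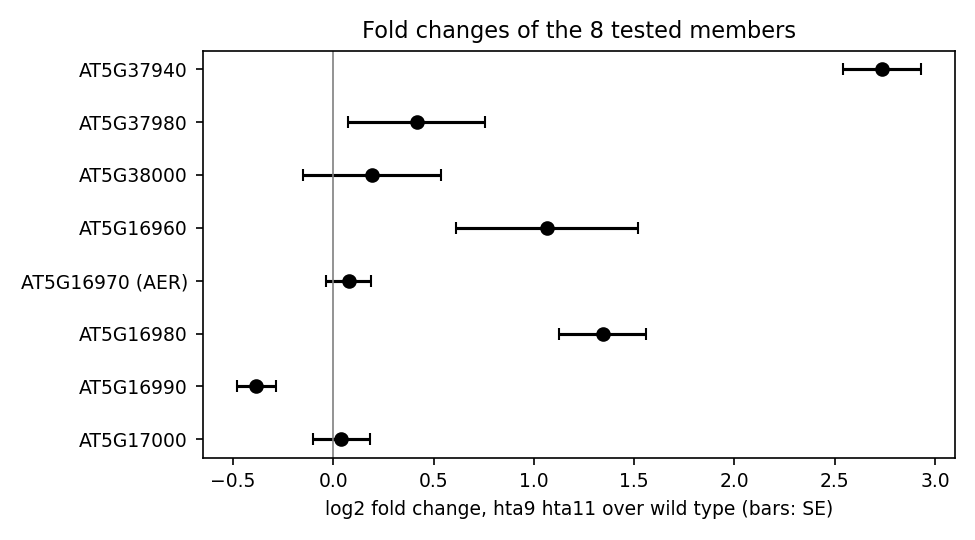
Log2 fold change of hta9 hta11 over wild type for the 8 tested members, with the SE from edgeR as bars. AT5G37940 at 2.73 and AT5G16980 at 1.34 lie farthest to the right, AT5G16990 at -0.38 is the single value below 0, and the bars of AT5G38000, AER and AT5G17000 reach 0.

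The other 2 members had almost no transcript. AT3G03080 had 2 counts, both in hta9 hta11 library 1, and 0 in the other 7 libraries. AT1G26320 had 0 counts in all 8, which allows a level of up to 0.00993 CPM at 3 counts over the libraries together, a limit that covers counting error only. Neither entered the test. AT3G03080 and AT1G26320 are full-length members by protein, at 350 and 351 residues.

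On a scale per length, AER led in both genotypes, with 49.8 ± 6.49 FPKM in hta9 hta11 and 47.2 ± 5.98 FPKM in the wild type (SD, n = 4). AT5G17000 followed at 10.9 ± 1.38 FPKM in hta9 hta11 and 10.6 ± 2.08 FPKM in the wild type. AT5G16990 had 8.81 ± 0.987 FPKM in hta9 hta11 and 11.5 ± 0.911 FPKM in the wild type. These 2 genes did not differ in level beyond their spread in the wild type; AT5G17000 was the higher by mean in the mutant and AT5G16990 in the wild type. AT5G16980 had 5.17 ± 1.40 FPKM in the mutant and 2.03 ± 0.445 FPKM in the wild type. AT5G37940 had 1.27 ± 0.122 FPKM in the mutant and 0.188 ± 0.0210 FPKM in the wild type. AT5G38000, AT5G16960 and AT5G37980 stayed at or below 0.751 FPKM in every library, and in the wild type AT5G37940 did not differ from AT5G16960 and AT5G37980 beyond their spread.

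The family's total hardly moved. It was 122.3 ± 13.5 CPM in hta9 hta11 and 115.0 ± 11.9 CPM in the wild type (SD, n = 4), a ratio of 1.06, and the libraries ranged from 111.5 to 141.6 CPM in the mutant and from 101.9 to 128.2 CPM in the wild type. AT5G37940 supplied 1.66% ± 0.140 of the family's FPKM in the mutant and 0.264% ± 0.0547 in the wild type, and AER supplied 64.5% ± 1.21 in the mutant and 65.1% ± 1.57 in the wild type. Within the AER cluster AT5G16980 held 6.86% ± 1.61 of the FPKM in the mutant and 2.85% ± 0.572 in the wild type. AT5G16990 held 11.8% ± 0.844 in the mutant and 16.2% ± 1.30 in the wild type, while AER and AT5G17000 differed by less than their SD.

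**Figure D4:**
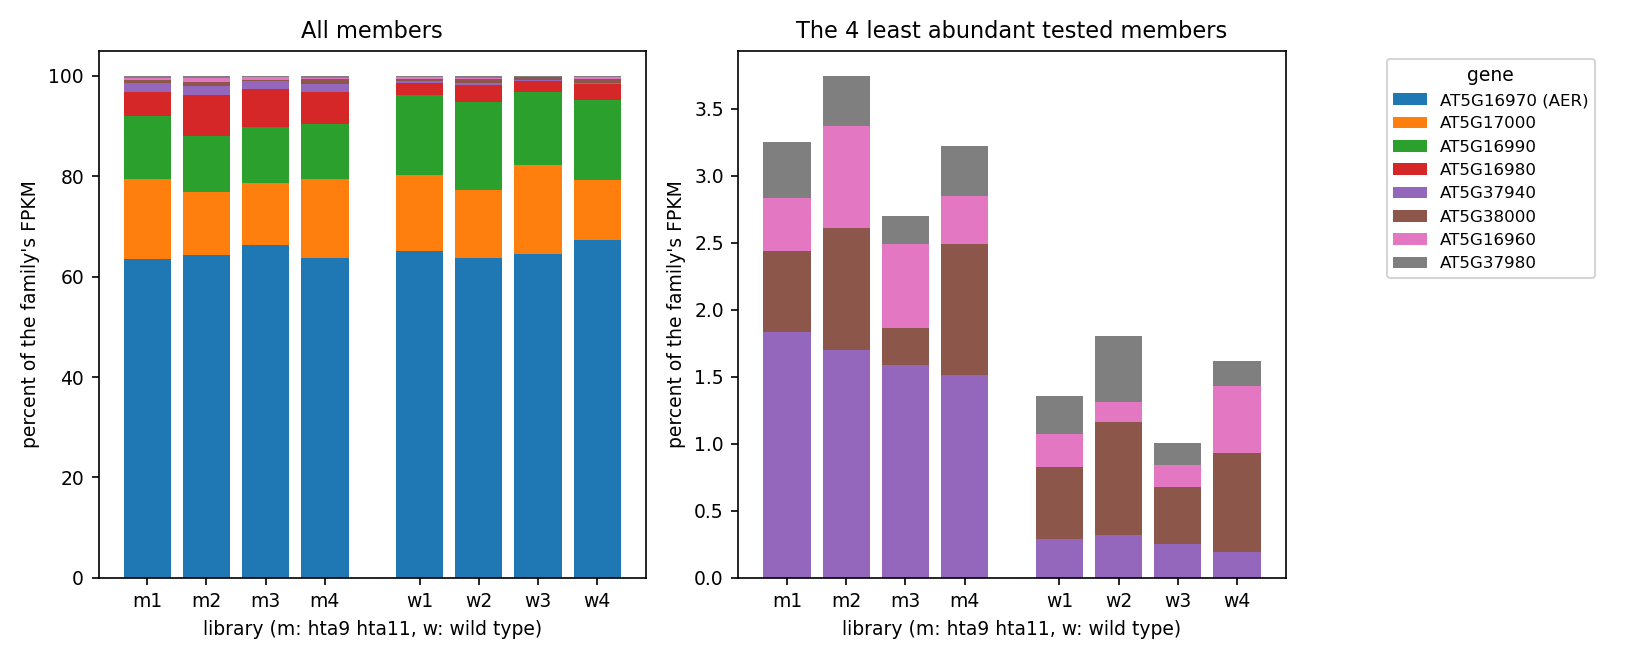
Share of each member in the summed FPKM of the 10 genes, by library, for all members (left) and for the 4 least abundant tested ones on a larger scale (right). AER holds 63.5% to 67.3% in every library, and AT5G37940 holds 1.51% to 1.83% in the hta9 hta11 libraries and 0.195% to 0.321% in the wild-type libraries.

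No gene around the members passed edgeR's test. Of 30 neighbours, which are the genes between the members of a cluster and the nearest 3 beyond each end, 21 could be tested and 0 passed in edgeR, with 2 at an unadjusted p under 0.05, 0 passing in DESeq2 and 1 in limma-voom. Between AT5G37940 and AT5G38000, the glycosyltransferase-like gene AT5G37950 had 0.725 ± 0.167 CPM in the mutant and 0.793 ± 0.248 CPM in the wild type, and the methyltransferase-like gene AT5G37990 had 0.375 ± 0.107 CPM in the mutant and 0.502 ± 0.333 CPM in the wild type. AT5G37970, another methyltransferase-like gene, had 3 counts over the mutant libraries and 6 over the wild-type libraries. AT5G37960 had 2 counts over the mutant libraries and 0 over the wild-type libraries. It encodes 108 residues, of which 80 align to the protein of AT5G37940 at 61.2% identity. The non-coding genes AT5G05585 and AT5G05605 had 0 counts in all libraries.

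A non-coding RNA beyond the end of that cluster was uneven between mutant libraries. AT5G38005 (15155067 to 15156088, plus strand), 11524 bases past AT5G38000, was chosen after its values were seen. It had 2.98, 0.174, 0.837 and 0.269 CPM in hta9 hta11 libraries 1 to 4, against 5.85, 4.96, 4.93 and 4.80 CPM in the wild type. The mutant libraries all lay below the wild type. Libraries 1 and 3, which held more HTA9, were the higher ones here too. Libraries 2 and 4 had 7 and 10 counts, too few to put in order. A relation to HTA9 level was not tested. The log2 fold change of -2.21 (SE 0.61) did not pass in edgeR's test (adjusted p = 0.0786). It passed in limma-voom (adjusted p = 0.0217), and without mutant library 1 it was -3.64 (adjusted p = 0.00134). Over all alternatives the adjusted p ran from 0.000111 to 0.194.

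**Figure D5:**
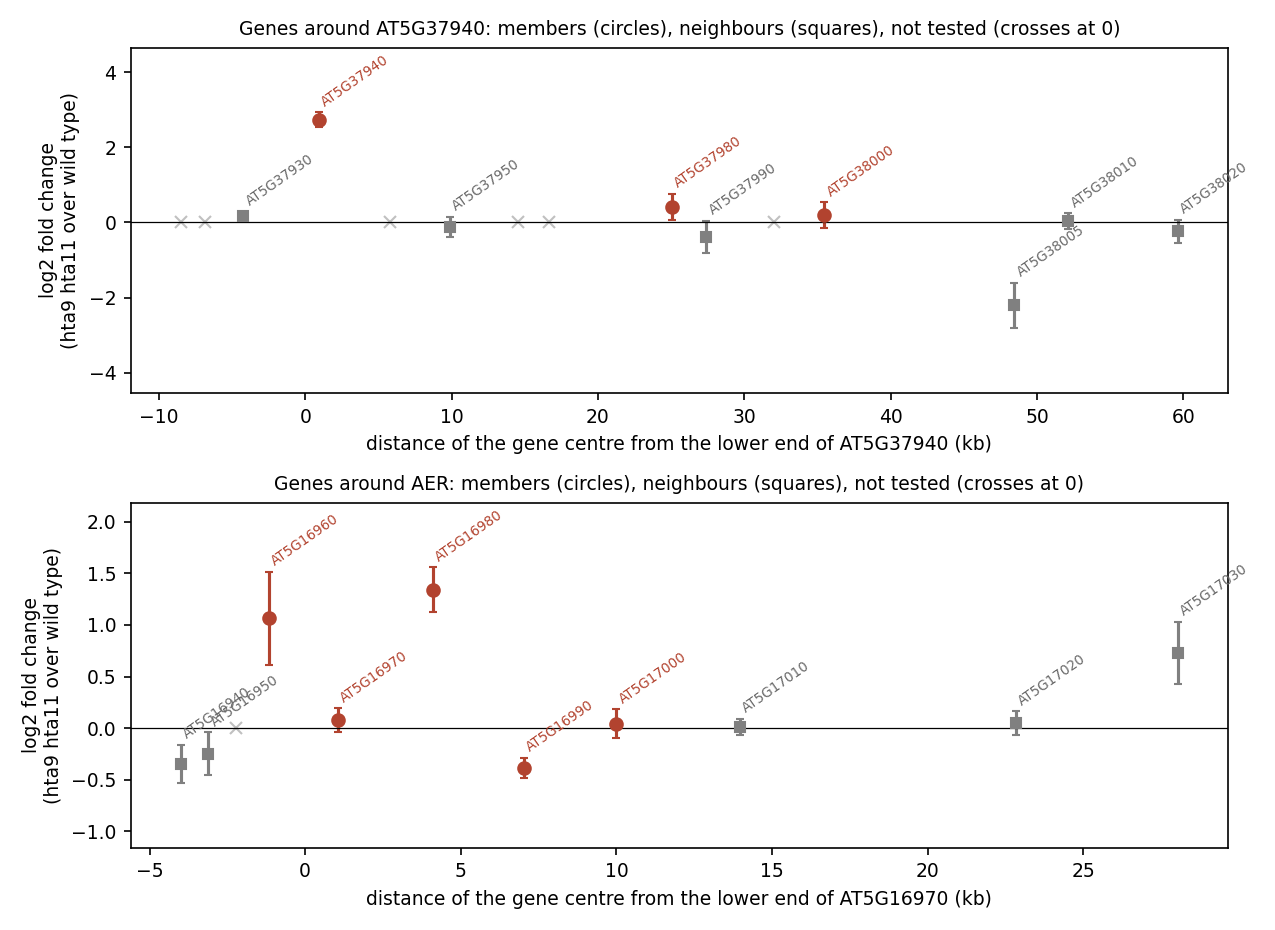
Log2 fold change of hta9 hta11 over wild type, with SE, against distance along the chromosome in kb for members (red circles) and neighbours (grey squares) around AT5G37940 (top) and AER (bottom). Crosses at 0 mark genes too low to test. AT5G37940 at 2.73 stands above its neighbours, and AT5G38005 at -2.21 lies lowest.

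The genes whose profile over the 8 libraries was most like that of AT5G37940 were sought among 18300 genes with a mean of at least 1 CPM, by the root mean square difference of gene-centred log2 CPM. The nearest was PHE1, a type I MADS-box gene known from seed development, at 0.352. AT1G52800, an oxygenase gene, followed at 0.363, then SEP3, a floral organ identity factor, at 0.374, FLS2 (AT5G63580), annotated as flavonol synthase, at 0.388 and CNGC14, a cyclic nucleotide-gated channel, at 0.400. All 5 averaged 0.341 to 0.965 CPM in the wild type. Their log2 fold changes of 2.18 to 2.92 follow from the choice, since the profile of AT5G37940 is mostly its genotype difference. Among the members AT5G16980 was nearest, at 0.759, and AT5G38000 was at 1.40. For the same reason these distances largely restate the members' fold changes. In each of the 5 genes mutant libraries 2 and 4 were the highest, while in AT5G37940 they were the lowest, at 1.69 and 1.64 CPM. The order within the mutant is thus not part of the likeness.

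Of 6 floral markers 4 rose (AP1, AP3, PI and SEP3, the last of them among the 5 genes nearest in profile), against 2.49% called higher over all genes tested. AP3 had 5 to 9 counts per wild-type library and PI had 5 to 17. Both thus passed the count filter mainly through the mutant group, in which they were high. The 6 markers summed to 9.46, 16.3, 7.84 and 14.1 CPM in hta9 hta11 libraries 1 to 4 and to 2.75 to 3.55 CPM in the wild type. AG, which specifies stamens and carpels, had 0.708 ± 0.176 CPM in the mutant and 0.996 ± 0.146 CPM in the wild type, and LFY did not pass (adjusted p = 0.143). Anther and pollen markers summed to 0.155 to 0.457 CPM in hta9 hta11 and to 0.0284 to 0.0539 CPM in the wild type. They were too low to test. Counts over the mutant and wild-type libraries were 34 and 1 for AMS, 9 and 1 for MS2, and 6 and 4 for TDF1. VGD1 had 1 and 0, and CYP703A2 of anthers had 0 counts in every library. AP1 lost its call without mutant library 4 or wild-type library 2, and PI without any of 5 single libraries, with adjusted p-values of up to 0.103. Of 8 genes of rapid stress responses 1 fell, TCH4, against 1.25% called lower over all genes tested. It was at 29.4 ± 12.2 CPM in hta9 hta11 and 72.1 ± 22.5 CPM in the wild type. The 8 summed to 254.2 to 387 CPM in the mutant and 360.3 to 551.5 CPM in the wild type. The TCH4 call ended without any of 6 single libraries, with an adjusted p of up to 0.119. The part of any of these lists in the values of AT5G37940 and AT5G16980 was not tested. In bulk tissue more cells of a type and more RNA per cell cannot be told apart.

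In 5 lists of other genes that make or remove reactive carbonyls 0 genes passed in edgeR, with log2 fold changes of -0.62 (AOS) to 0.96 (ChlAKR), and some missed the threshold narrowly. Of 6 related dehydrogenases 5 were tested and 0 passed in edgeR, DESeq2 or limma-voom, with 0 at an unadjusted p under 0.05 and a median log2 fold change of -0.03. Of these, AT3G56460 had 74.4 ± 0.649 CPM in hta9 hta11 and 76.0 ± 4.33 CPM in the wild type, and NQR had 52.1 ± 7.33 CPM in the mutant and 53.2 ± 6.57 CPM in the wild type. The untested gene, AT3G59845, named after its values were seen, was too low to test. It had 11 counts over the mutant libraries and 0 over the wild-type libraries.

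Of 12 further reductases, 0 passed in edgeR or in limma-voom. DESeq2 called 2 of them, both lower. In edgeR 2 had an unadjusted p under 0.05, and the median log2 fold change was -0.05. AOR, a chloroplast alkenal and alkenone reductase, had 96.2, 87.4, 87.3 and 91.5 CPM in hta9 hta11, against 109.7, 100.3, 114.1 and 113.6 CPM in the wild type. The groups did not overlap, but the log2 fold change of -0.27 (SE 0.07) did not pass in edgeR (adjusted p = 0.065) and did in DESeq2 (adjusted p = 0.00444). SDR1, a short-chain reductase chosen after its values were seen, was at -0.39 (SE 0.09) on the log2 scale, with an adjusted p of 0.0509 in edgeR and of 0.00564 in DESeq2. Over the alternatives the adjusted p ran from 0.00444 to 0.193 for AOR and from 0.00564 to 0.159 for SDR1. ChlAKR, a chloroplast aldo-keto reductase chosen after its values were seen, had 6.92, 6.39, 9.70 and 7.72 CPM in hta9 hta11, against 1.11, 2.98, 3.23 and 8.58 CPM in the wild type. Wild-type library 4 lay above 3 mutant libraries, and the log2 fold change of 0.96 (SE 0.45) did not pass (adjusted p = 0.292). OPR3, a reductase of jasmonate synthesis, was variable, at 201.6 ± 82.9 CPM in the mutant and 253.4 ± 128.5 CPM in the wild type.

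Of 7 aldehyde dehydrogenases, which oxidise aldehydes to acids, 0 passed in edgeR, DESeq2 or limma-voom, with 1 at an unadjusted p under 0.05 and a median of -0.05. ALDH2B4 had 176.8 ± 8.15 CPM in hta9 hta11 and 183.5 ± 15.5 CPM in the wild type, and ALDH2C4 had 168.6 ± 3.64 CPM in the mutant and 174.8 ± 7.20 CPM in the wild type. Of 7 tested glutathione transferases, 0 passed in any of the 3 tools, with 3 at an unadjusted p under 0.05 and a median of -0.02. GSTU19 had 305.3 ± 32.8 CPM in the mutant and 342.8 ± 37.0 CPM in the wild type, and GSTF8 had 253.1 ± 33.1 CPM in the mutant and 310.4 ± 31.9 CPM in the wild type. ERD9 (GSTU17), chosen after its values were seen, had 15.7 ± 3.80 CPM in the mutant and 11.2 ± 1.65 CPM in the wild type, and its log2 fold change of 0.49 (SE 0.17) did not pass (adjusted p = 0.151).

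Of 8 genes of the lipoxygenase pathway, which forms reactive carbonyls from polyunsaturated fatty acids, 0 passed in edgeR or in limma-voom. DESeq2 called 1, HPL1, as higher. In edgeR 2 had an unadjusted p under 0.05, and the median was -0.03. LOX2, the main lipoxygenase of leaf chloroplasts, had 2159 ± 490.6 CPM in hta9 hta11 and 2413 ± 1034 CPM in the wild type, and AOS, of jasmonate synthesis, had 350.1 ± 100.9 CPM in the mutant and 538.7 ± 137.7 CPM in the wild type. HPL1, named as a hydroperoxide lyase, was chosen after its values were seen, and whether its enzyme is active in these Col-0 plants was not measured. It had 58.7, 57.1, 67.4 and 80.2 CPM in hta9 hta11, against 38.5, 49.0, 54.9 and 43.7 CPM in the wild type. Its log2 fold change of 0.50 (SE 0.13) did not pass in edgeR (adjusted p = 0.0716) and passed in DESeq2 (adjusted p = 0.0137), with a range of 0.0137 to 0.216 over the alternatives.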

How the data were processed

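The authors deposited raw counts per gene for 8 libraries. Tools named in the submitters' processing notes are HISAT2 (2.2.1), limma, fastp (0.23.2), DESeq2 and SAMtools (1.17), with build TAIR10. The counting program and its strand setting are not stated there. Of the table's value columns, 0 were left unused.

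Genotype was tested with edgeR 4.0.16 in R 4.3.3 after filterByExpr and TMM scaling (quasi-likelihood, 2-sided, Benjamini-Hochberg over 20214 genes, threshold 0.05). Adjusted p-values are edgeR's unless another tool is named, and each SE follows from the fold change and its F value. FPKM is CPM per kb of exon in RefSeq's TAIR10.1 annotation. P-values set the genotype difference against the spread between libraries, which are treated as separate pools of plants. Within a genotype, library pairs differed by more than sampling noise (chi-square over its degrees of freedom, 12.5 to 45.3). The test was checked on simulated data. Proteins were translated from RefSeq coding sequences.

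The members, lists and rules were chosen with earlier results of these data known. Named were all members, HTA9 and HTA11, up to 4 genes per list that passed or else the 2 most abundant, neighbours inside AT5G37940's cluster or that passed, and the 5 nearest profiles. Alternatives were RLE and upper-quartile scaling, 2 other count filters, a replicate block, libraries left out, DESeq2 1.42.0, limma-voom (limma 3.58.1), a threshold of 0.01, shares without length scaling and another prior count.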

Additional observations from a re-analysis of the deposited data

Results flagged for a closer look

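In 24 groups of 4 values (the 10 members by genotype, the family total and the share of AT5G37940), 2 held a value whose gap to its nearest neighbour exceeded the critical 0.829 of the group's range. For normally distributed values chance gives this in about 1 of 20 groups. That rate does not apply to groups made up mostly of 0 counts, and groups with 0 throughout could not be flagged. AT5G16990 in the wild type had 25.1 CPM in library 4, against 21.3 to 21.9 CPM in the 3 others, a ratio of 0.848. AT3G03080 in hta9 hta11 had 0.0422 CPM, from 2 counts, in library 1 and 0 in the 3 others. Its ratio of 1 is fixed by the 3 values of 0, so nothing is read from it.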

How the results depend on the processing

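AT5G37940 kept its direction under all 16 alternatives, with log2 fold changes of 2.62 to 2.77, and AT5G16980 kept its call under the same 16 at a threshold of 0.05. The count of members called was 2 or 3 when 1 library was left out and 1 at an adjusted p under 0.01, where AT5G16980 was not called. The share of AT5G37940 in the family was 1.48% by counts without length scaling, in place of 1.66%, and the family ratio ran from 1.00 to 1.11. Signs that turned were those of AT5G38000 without hta9 hta11 library 4, AER without hta9 hta11 library 3 or libraries 1 and 3 (-0.009), and AT5G17000 without hta9 hta11 library 4, wild-type library 2 or 4, or hta9 hta11 libraries 1 and 3 (-0.019). With 1 library left out the log2 fold changes ran from -0.033 to 0.405 for AT5G38000, from -0.022 to 0.151 for AER and from -0.047 to 0.18 for AT5G17000; the cause was not tested.

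The count of genes called over the table was 757. It was 1504 in DESeq2, 152 at an adjusted p under 0.01, and 208 to 1246 with 1 library left out, lowest without hta9 hta11 library 4 and highest without library 1; 293 were called without hta9 hta11 library 2 and 395 to 472 without a single wild-type library. Calls among further reductases numbered 2 in DESeq2 and 0 to 2 with 1 library left out, among lipoxygenase pathway genes 1 in DESeq2, and among glutathione transferases 0 to 1 with 1 library left out.

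Replicate numbers are shared by the genotypes, but they were not taken as pairs, since the deviations of same-numbered libraries correlated at 0.39, 0.34, -0.27 and -0.19, and 4 of 8 libraries correlated best with their own number. With the replicate block 847 genes and 2 members were called, AT5G37940 was at 2.74 and AT5G16980 at 1.33, HTA11 passed (-2.38, adjusted p = 0.0329) and so did AT5G38005 (-2.68, adjusted p = 0.0424) and SDR1 (adjusted p = 0.0339). At 7 to 12 counts per wild-type library of AT5G37940, depth limits how well its low level is known.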
